A study of Homo sapiens with 30 samples.

Results

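The 14-3-3 genes are SFN, YWHAB, YWHAE, YWHAG, YWHAH, YWHAQ and YWHAZ, the 7 human genes that encode the isoforms sigma, beta, epsilon, gamma, eta, theta and zeta. They were taken by gene identifier from the 39359 genes of the raw count table, and all 7 were found. The cells were H1299, a line from lung carcinoma that lacks p53, transfected with a vector and sorted on GFP at 6 h or 24 h. Transfection was transient, and TRE-tight promoters on the vector drove p53 and GFP. Cells of the pGFP group carried GFP without p53. The wild type p53 and RW mutant p53 groups carried the intact or an altered coding sequence, and the p53 O6-meG group carried a vector with the methylated base O6-methylguanine on the strand that is transcribed. The p53 TM group (for transcriptional mutagenesis) carried the same lesion vector and was the only one that also received O6-bzG, at 10 µM, to inactivate the repair protein AGT. Lesion with repair blocked and exposure to O6-bzG therefore cannot be told apart. With 3 replicates of 5 vectors or treatments at 2 times, the series holds 30 libraries in 10 groups.

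14-3-3 proteins form dimers that bind other proteins at phosphorylated serine or threonine and thereby change where those proteins are in the cell, how active they are or how long they last. Most isoforms are made in nearly every tissue. SFN is made mainly in epithelial cells, is a known transcriptional target of p53, and holds the mitotic kinase complex of CDK1 and cyclin B in the cytoplasm after DNA damage.

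SFN (ENSG00000175793.11) is a gene of a single exon of 1308 bases at chr1:26863149-26864456 of hg38, plus strand, and has no overlapping gene in the annotation. YWHAB (ENSG00000166913.12) lies at chr20:44885702-44908532 on the plus strand, YWHAE (ENSG00000108953.16) at chr17:1344275-1400222 on the minus strand, YWHAG (ENSG00000170027.6) at chr7:76326799-76358991 on the minus strand, YWHAH (ENSG00000128245.14) at chr22:31944522-31957603 on the plus strand and YWHAQ (ENSG00000134308.13) at chr2:9583967-9630997 on the minus strand. YWHAZ (ENSG00000164924.17) is on chromosome 8. YWHAH shares its locus with YWHAH-AS1 on the opposite strand, which had at most 8 counts in a library against 2778 or more for YWHAH. YWHAE and YWHAQ also overlap annotated genes on the opposite strand, and YWHAH a further gene on its own strand, none of which was analysed here, and the counts do not show which strand reads came from. Processed pseudogenes that could share reads with their parent are in the table for YWHAB (2), YWHAE (3), YWHAQ (6) and YWHAZ (8). Together they reached at most 0.752% of the parent's count in any library, for YWHAZ. How reads that fit a pseudogene and its parent alike were counted is not given, so this share does not measure shared reads.

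The libraries held 32302699 to 71950532 counted reads each (median 44424643). KRT8, KRT18 and VIM, markers chosen for the carcinoma line, were at 111 CPM (the count relative to library size after TMM scaling) or more in every library. Of 14 markers of leukocytes, endothelium, fibroblasts, squamous and alveolar cells, CD3E, KRT5 and KRT14 were not found by name in the count table. PTPRC, CDH5, SFTPC and SFTPB never exceeded 5 counts. The other 11 summed to between 0.789 and 1.95 CPM at 6 h and between 2.07 and 4.75 CPM at 24 h.

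Among the lesion groups at 6 h, both libraries of replicate 2 have titles that contradict themselves, with one group before the parentheses and the other group inside them. The label inside the parentheses and the genotype field decided their placement. CDKN1A, the cell cycle inhibitor p21 and a target of p53, was at 267.8, 50.0 and 260.7 CPM in the 3 libraries labelled p53 O6-meG at 6 h and at 65.8, 249.4 and 57.7 CPM in those labelled p53 TM, so both replicate 2 libraries resemble the other group. SFN results on these 2 groups at 6 h are therefore given as labelled and also with the other grouping (the pair exchanged). In the raw count table both libraries carry the name before the parentheses, as in the other grouping. As labelled, edgeR called 53 genes with at least a 2-fold change in p53 O6-meG against pGFP at 6 h. With the other grouping it called 543. In p53 TM it called 14 under either grouping. The main fits use the labels, and which placement is right was not tested further.

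The sequences before the gene starts differed between SFN and the YWHA genes. RefSeq (GRCh38.p14) start sites were matched for 6 of the 7 genes, YWHAZ being the exception. The 250 bases before the start held 3 CG dinucleotides and 62.8% G and C for SFN, and 21 to 34 CG dinucleotides and 70.4% to 72.0% G and C for the 5 matched YWHA genes, beside medians of 11 and 58.0% over all 35116 promoters of the same length. The sequences of SFN (chr1:26862899-26863148, plus strand) and of YWHAH (chr22:31944285-31944534, plus strand), the member with the most CG dinucleotides, are shown with each CG in capitals because the contrast is visible in the letters.
SFN promoter: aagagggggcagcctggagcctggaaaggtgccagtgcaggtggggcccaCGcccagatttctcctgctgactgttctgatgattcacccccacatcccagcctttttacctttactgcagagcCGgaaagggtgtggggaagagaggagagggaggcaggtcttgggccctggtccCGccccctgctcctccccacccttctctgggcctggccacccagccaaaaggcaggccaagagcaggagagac
YWHAH promoter: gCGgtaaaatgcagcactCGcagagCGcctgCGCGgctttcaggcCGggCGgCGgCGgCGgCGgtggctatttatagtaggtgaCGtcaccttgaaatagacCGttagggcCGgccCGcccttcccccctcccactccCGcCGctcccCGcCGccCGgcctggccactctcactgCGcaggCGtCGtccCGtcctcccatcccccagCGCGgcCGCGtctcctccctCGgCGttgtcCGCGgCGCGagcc

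The p53 response element, the DNA that p53 binds, was searched on both strands of the 3000 bases before each gene's start in hg38. It consists of a pair of decamers with up to 13 bases between them. With at most 2 mismatches in all and the fixed C and G of each decamer kept, SFN had no match, YWHAH had 2 matches and the other 5 members had none, whereas 26.1% of 19970 protein-coding genes had at least 1. A single decamer without mismatch, searched for after the first result was known, occurs in 53.5% of these genes. SFN has 1, YWHAH 2 and YWHAQ 1 such decamers. The single decamer of SFN is shown in capitals within the 60 bases of chr1:26861315-26861374, and the YWHAH matches at chr22:31943146-31943174 (1 mismatch) and chr22:31943808-31943828 (2 mismatches) with both their decamers in capitals, because SFN is the member that rose with p53 and these are the only full matches before any member within 2 mismatches. All 3 are on the plus strand as printed.
SFN decamer, 1800 bases before the start: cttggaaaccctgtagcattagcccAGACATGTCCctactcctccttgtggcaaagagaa
YWHAH match, 1348 bases before the start: GAACATGTCTtactctctaGAGCAAGATT
YWHAH match, 694 bases before the start: GGACTAGCACtGGGCTGGCTC
These are matches of letters, and binding was not measured in these data. The search left out every pair in which either decamer lacks its fixed C or G. A gene without a match, such as SFN, can therefore still have an element of that kind.

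The 7 genes were not made at similar levels. SFN was the rare member, between 0.0737 and 2.55 CPM over the 30 libraries, on 3 to 118 counts. YWHAZ was between 789 and 1097 CPM, YWHAQ between 484 and 644, YWHAE between 441 and 620, YWHAB between 409 and 594, YWHAG between 358 and 557, and YWHAH between 76.4 and 158 CPM. Divided by exon length, the median levels were 208 CPM per kilobase for YWHAQ, 140 for YWHAE, 127 for YWHAG, 111 for YWHAZ, 62.0 for YWHAB, 53.7 for YWHAH and 0.236 for SFN. The lengths are of all annotated exons together, which run to 7907 bases for YWHAB and 8557 for YWHAZ, so isoforms with shorter transcripts have their level per kilobase understated. In bulk RNA, fewer cells with a transcript and less transcript per cell cannot be told apart.

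All 7 members passed the filter on low counts and were among the 20875 genes tested. SFN exceeded the filter's level of 0.225 CPM in 22 of 30 libraries, 4 of the 6 pGFP libraries among them, and each YWHA gene did so in all 30. Spread over all libraries was 106% of the mean for SFN and 8.43% to 20.9% for the YWHA genes. The spread between replicates estimated by edgeR (biological coefficient of variation) was 24.4% for SFN and 6.49% to 10.9% for the YWHA genes.

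At 6 h SFN was at 0.724, 0.523 and 0.560 CPM in the 3 wild type p53 libraries and at 0.202, 0.131 and 0.297 CPM in the 3 pGFP libraries. All wild type p53 libraries lay above all pGFP libraries. SFN was the 1 member of 7 that rose, by 1.47 ± 0.40 on the log2 scale (SE; edgeR quasi-likelihood test, Benjamini-Hochberg adjusted P = 0.017), in a comparison in which 7.64% of all genes tested were called higher. These are small counts (31, 23 and 38 against 10, 6 and 17), and the call rested on single libraries: without pGFP replicate 1, pGFP replicate 2 or wild type p53 replicate 1 the adjusted P of SFN by the same edgeR test was 0.068, 0.099 and 0.068.

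At 24 h SFN was at 1.96, 2.55 and 1.21 CPM with wild type p53 and at 0.320, 0.250 and 0.230 CPM with pGFP. The lowest wild type p53 library was above the highest pGFP library by more than the whole range of the pGFP group. SFN rose by 2.84 ± 0.37 on the log2 scale (SE; edgeR, adjusted P = 1.3e-06) and was again the 1 member of 7 called, beside 20.3% of all genes called higher. Leaving out any of the 6 libraries gave between 2.57 and 3.08. Tested directly, the rise at 24 h exceeded the rise at 6 h by 1.36 ± 0.56, with an adjusted P of 0.18 by edgeR, so the difference in rise between the times was not past the threshold, and no member was called in this test beside 4.9% of all genes. Within the wild type p53 group, SFN was higher at 24 h than at 6 h by 1.67 ± 0.33 (edgeR, adjusted P = 0.00017), without overlap between the times.

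With RW mutant p53 SFN was at 0.292, 0.175 and 0.177 CPM at 6 h and at 0.333, 0.201 and 0.241 CPM at 24 h. Both sets overlap the pGFP libraries of their time. The log2 fold change of SFN against pGFP was −0.02 (95% interval −0.97 to 0.93) at 6 h and −0.04 (−0.96 to 0.88) at 24 h by edgeR. No member was called at either time, in comparisons in which 0.00479% of genes, 1 gene, were called. The intervals for SFN, which are not adjusted for the number of genes, span nearly 2-fold in either direction. Changes of that size were thus not detectable at its depth, and a call by adjusted P needs a larger change. All comparisons against pGFP at a given time share the same 3 pGFP libraries.

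**Figure D1:**
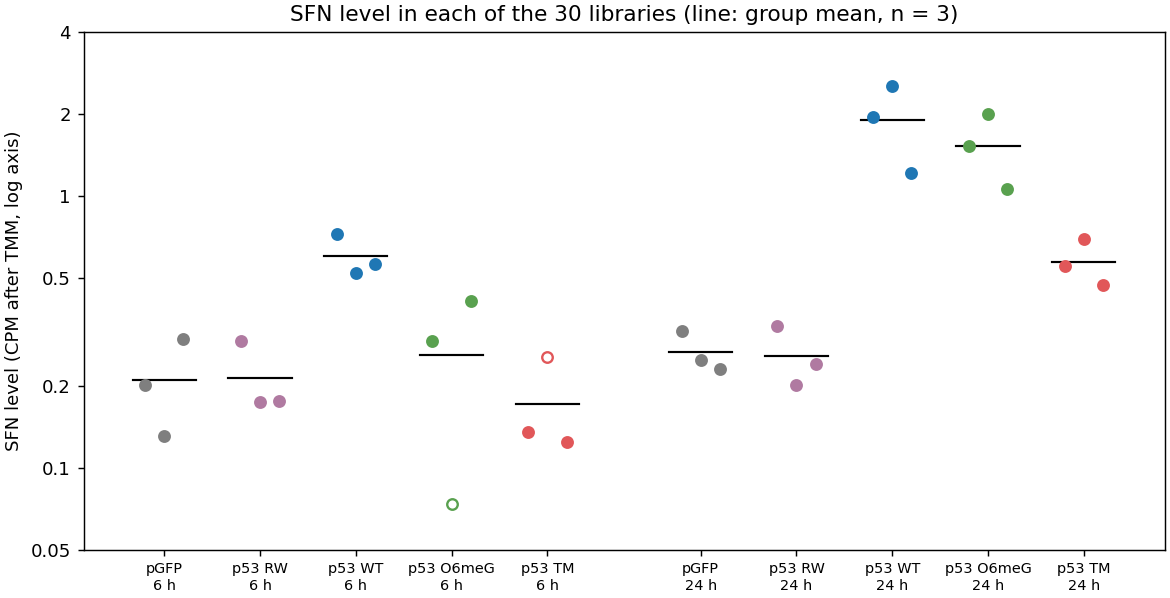
Each point is 1 library, the vertical axis is the SFN level in CPM after TMM scaling on a log axis, and groups are on the horizontal axis, with 6 h on the left and 24 h on the right; black lines are group means (n = 3) and hollow points are the 2 libraries with conflicting titles. The highest levels, 1.06 to 2.55 CPM, are those of wild type p53 and p53 O6-meG at 24 h, and the p53 TM libraries of that time lie between them and pGFP.

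With the lesion vector and active AGT, SFN at 24 h was at 1.53, 2.01 and 1.06 CPM in p53 O6-meG. These libraries overlap wild type p53 and lie above every pGFP library. Against pGFP SFN rose by 2.53 ± 0.38 on the log2 scale (SE; edgeR, adjusted P = 1.0e-05), the 1 member of 7 called beside 17.9% of all genes called higher and 29.3% called in either direction. The difference from wild type p53 was −0.31 (95% interval −0.94 to 0.32; edgeR, adjusted P = 1.0), and none of the 20875 genes was called between these groups by edgeR, with 882 genes (4.23%) but no member at an unadjusted P under 0.05 and 1 gene called by DESeq2.

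With AGT inactivated, SFN in p53 TM at 24 h was at 0.552, 0.694 and 0.472 CPM. All 3 libraries lay below every wild type p53 and p53 O6-meG library and above every pGFP and RW mutant p53 library. Against wild type p53 SFN fell by 1.74 on the log2 scale (SE 0.33; edgeR, adjusted P = 0.00073). It was the 1 member of 7 called lower, in a comparison in which 10% of all genes were called lower and 18.5% in either direction. Without any 1 of the 6 libraries the value lay between −1.98 and −1.47 and stayed past the threshold. The markers of other cells summed to between 2.07 and 3.62 CPM in p53 TM and between 3.39 and 4.29 CPM in wild type p53 at 24 h. Of the 6 tested, 1 was called lower (VWF, −2.20 ± 0.36), with a median of −1.005, and their part in the SFN difference was not tested.

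Against p53 O6-meG, which differs from p53 TM by O6-bzG, SFN at 24 h fell by 1.43 on the log2 scale (SE 0.34; edgeR, adjusted P = 0.013), beside 3.98% of all genes called lower. No other member was called, beside 2.51% called higher and 6.5% in either direction. This call was lost in edgeR fits without p53 O6-meG replicate 2 (adjusted P = 0.083), without p53 TM replicate 3 (0.077) and with only the groups compared (0.063).

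Against pGFP, SFN in p53 TM at 24 h was higher by 1.10 ± 0.40 on the log2 scale with an edgeR adjusted P of 0.095, and against RW mutant p53 by 1.14 ± 0.40 with an adjusted P of 0.078. Neither passed the threshold, although the libraries did not overlap. In these comparisons 7.71% and 7.11% of all genes were called higher, and 9.2% and 8.65% in either direction. With the other grouping of the 2 libraries at 6 h, which changes the shared estimate of spread but none of the 24 h counts, the adjusted P for SFN was 0.036 and 0.027, beside 9.45% and 9.07% of all genes called higher.

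Ordered by mean level at 24 h, SFN was thus highest with wild type p53 (1.90 ± 0.670 CPM, SD, n = 3), followed by p53 O6-meG (1.53 ± 0.474), p53 TM (0.573 ± 0.112), pGFP (0.267 ± 0.0471) and RW mutant p53 (0.259 ± 0.0675). The neighbours wild type p53 and p53 O6-meG did not differ beyond their spread, nor did pGFP and RW mutant p53. Within each replicate number SFN was lower in p53 O6-meG than in wild type p53. The pairs were 1.53 against 1.96, 2.01 against 2.55 and 1.06 against 1.21 CPM. With the replicate number as a block this difference was not called either. Between p53 O6-meG and p53 TM the difference passed the threshold, and between p53 TM and pGFP it did not. In each of wild type p53, p53 O6-meG and p53 TM the library of replicate 2 had the most SFN.

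The rise over pGFP can be set beside that of CDKN1A. Each percentage sets 1 library against the mean rise of the wild type group, not against the same-numbered libraries. The spread of these percentages within a group therefore includes differences between replicate numbers. At 24 h the p53 O6-meG libraries had 77.0%, 106% and 48.4% of the wild type rise of SFN and 84.6%, 129% and 82.7% of that of CDKN1A. The p53 TM libraries had 17.4%, 26.1% and 12.6% of the wild type rise of SFN and 56.5%, 65.7% and 42.4% of that of CDKN1A. In p53 TM every SFN value lay under every CDKN1A value, and this difference between the genes was not tested. Their log2 fold changes in p53 TM against wild type p53 were −1.74 ± 0.33 for SFN and −0.78 ± 0.42 for CDKN1A (edgeR, adjusted P = 0.00073 and 0.21). CDKN1A did not overlap between these groups, at 289 to 422 CPM in p53 TM and 513 to 791 CPM in wild type p53. The fitted spread of CDKN1A includes the 2 libraries at 6 h with conflicting titles. As labelled, its SD at 6 h was 124 CPM in p53 O6-meG and 108 CPM in p53 TM. With the other grouping it was 9.3 and 7.9 CPM.

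**Figure D2:**
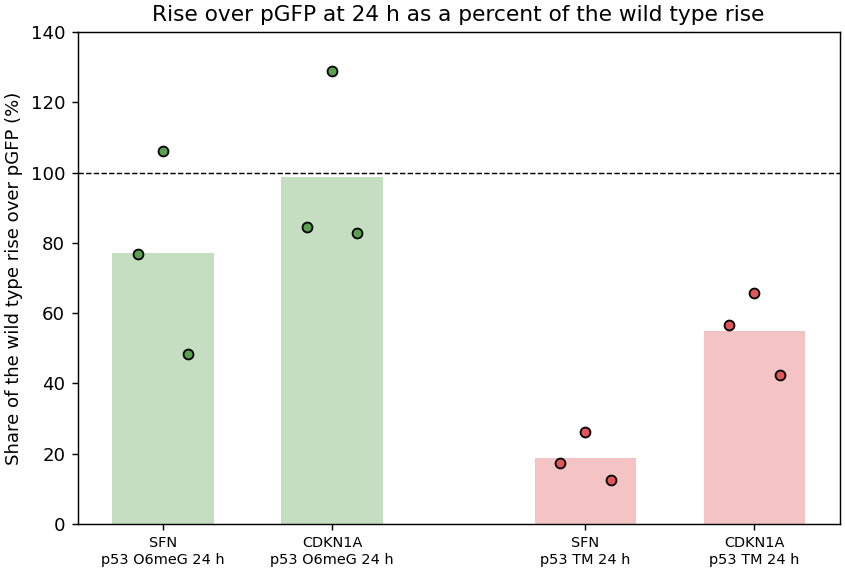
Bars give the mean rise over pGFP at 24 h of SFN and CDKN1A in p53 O6-meG (green) and p53 TM (red), in percent of the mean rise with wild type p53 (dashed line), and points are the 3 libraries of each group. SFN reached a mean of 18.7% in p53 TM and CDKN1A a mean of 54.9%.

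At 6 h the picture for SFN in the 2 lesion groups rested on 3 to 15 counts per library. As labelled, SFN was at 0.292, 0.0737 and 0.412 CPM in p53 O6-meG and at 0.135, 0.256 and 0.125 CPM in p53 TM. The p53 O6-meG libraries spread around those of pGFP, and all 3 p53 TM libraries lay within the range of pGFP or just below it. Neither was called against pGFP by edgeR (log2 fold change of SFN 0.26, adjusted P = 0.87, and −0.34, adjusted P = 0.92), and no other member was called, beside 0.35% and 0.0814% of all genes. With the other grouping SFN was at 0.56 ± 0.38 (adjusted P = 0.44) in p53 O6-meG and at −0.91 ± 0.44 (adjusted P = 0.62) in p53 TM, again not called, beside 7.35% and 0.316% of all genes.

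All p53 TM libraries at 6 h lay below all wild type p53 libraries in SFN. The log2 fold change was −1.81 ± 0.42 with an edgeR adjusted P of 0.063 as labelled, in a comparison that called 0.0527% of all genes lower, so no member was called. With the other grouping it was −2.38 (edgeR, adjusted P = 4.3e-05), beside 10.8% of all genes called lower. With both libraries left out it was −2.18 (adjusted P = 0.0009), beside 8.14%, and with the replicate number as a block −1.82 (adjusted P = 0.048), beside 0.393%. The difference between p53 TM and wild type p53 at 24 h departed from that at 6 h by 0.07 ± 0.47 as labelled (edgeR, adjusted P = 0.99) and by 0.64 ± 0.48 with the other grouping (adjusted P = 0.67). Between p53 O6-meG and wild type p53 at 6 h SFN differed by −1.22 ± 0.40 (edgeR, adjusted P = 0.22), or by −0.91 (0.49) with the other grouping. Between p53 TM and p53 O6-meG it differed by −0.59 ± 0.48 as labelled (adjusted P = 1.0), and by −1.46 (0.030, beside 6.35% of all genes called lower) with the other grouping.

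As a share of the summed level of the 7 genes per kilobase, SFN was 0.0230% ± 0.0091 (SD, n = 3) in pGFP and 0.0629% ± 0.0107 in wild type p53 at 6 h, and 0.0307% ± 0.0084 and 0.204% ± 0.075 at 24 h. In p53 TM it was 0.0176% ± 0.0070 at 6 h as labelled, 0.0116% ± 0.0035 with the other grouping, and 0.0649% ± 0.0119 at 24 h. The groups did not overlap for wild type p53 against pGFP or for p53 TM against wild type p53, at either time. Two-sided exact permutation tests of these 4 differences gave P = 0.1, the smallest value that 3 against 3 libraries allow. The summed level of the family lay between 674 and 741 CPM per kilobase in the group means, so the wild type rise in SFN was small against the level of the other isoforms.

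The 6 YWHA genes, which encode the widely made isoforms, were measured on 2778 to 65878 counts per library and were not called by edgeR or DESeq2 in any of the 16 comparisons between vectors or treatments. Of these 96 tests by edgeR 2 had an unadjusted P under 0.05, YWHAQ and YWHAH in comparisons given in the next paragraphs. With wild type p53 their log2 fold changes against pGFP lay between −0.04 and 0.13 at 6 h and between −0.16 and 0.14 at 24 h. The widest ends of their 95% intervals were −0.29 (YWHAH) and 0.28 (YWHAQ) at 6 h, and −0.41 (YWHAH) and 0.34 (YWHAQ) at 24 h, by edgeR. A change of 2-fold in any YWHA gene with wild type p53 therefore lay outside the intervals at both times. At 24 h 34.9% of all genes were called in 1 direction or the other, and 8.75% at 6 h.

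YWHAE, the epsilon isoform, was at 581, 596 and 620 CPM with wild type p53 at 24 h and at 501, 589 and 559 CPM with pGFP. The groups overlapped, and its log2 fold change of 0.12 ± 0.07 had an edgeR adjusted P of 0.18, the lowest among the YWHA genes in that comparison. YWHAQ, the theta isoform, was at 588, 642 and 644 CPM with wild type p53 and at 488, 577 and 571 CPM with p53 TM at 24 h. These did not overlap, and the difference of −0.20 ± 0.09 had an unadjusted P of 0.048 and an adjusted P of 0.16.

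YWHAH, the eta isoform and the least abundant YWHA gene, was at 93.8, 119 and 117 CPM with pGFP at 24 h, at 95.7, 121 and 122 CPM with RW mutant p53, at 82.4, 96.7 and 116 CPM with wild type p53, at 81.6, 99.7 and 117 CPM with p53 O6-meG and at 76.4, 95.9 and 104 CPM with p53 TM. In all 5 groups the library of replicate 1 was the lowest, and the groups overlapped. Within each replicate number YWHAH was lower than pGFP with wild type p53, p53 O6-meG and p53 TM, and higher with RW mutant p53. The closest was p53 O6-meG replicate 3, at 116.5 against 117.2 CPM. With the replicate number as a block YWHAH was not called in these comparisons. Against pGFP the log2 fold change of YWHAH was −0.16 with wild type p53, −0.15 with p53 O6-meG, −0.25 with p53 TM and 0.04 with RW mutant p53, with edgeR adjusted P of 0.36, 0.43, 0.25 and 1.0. These values share the pGFP libraries. Between p53 TM and RW mutant p53 at 24 h YWHAH differed by −0.29 ± 0.12 (edgeR, unadjusted P = 0.027, adjusted P = 0.17).

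**Figure D3:**
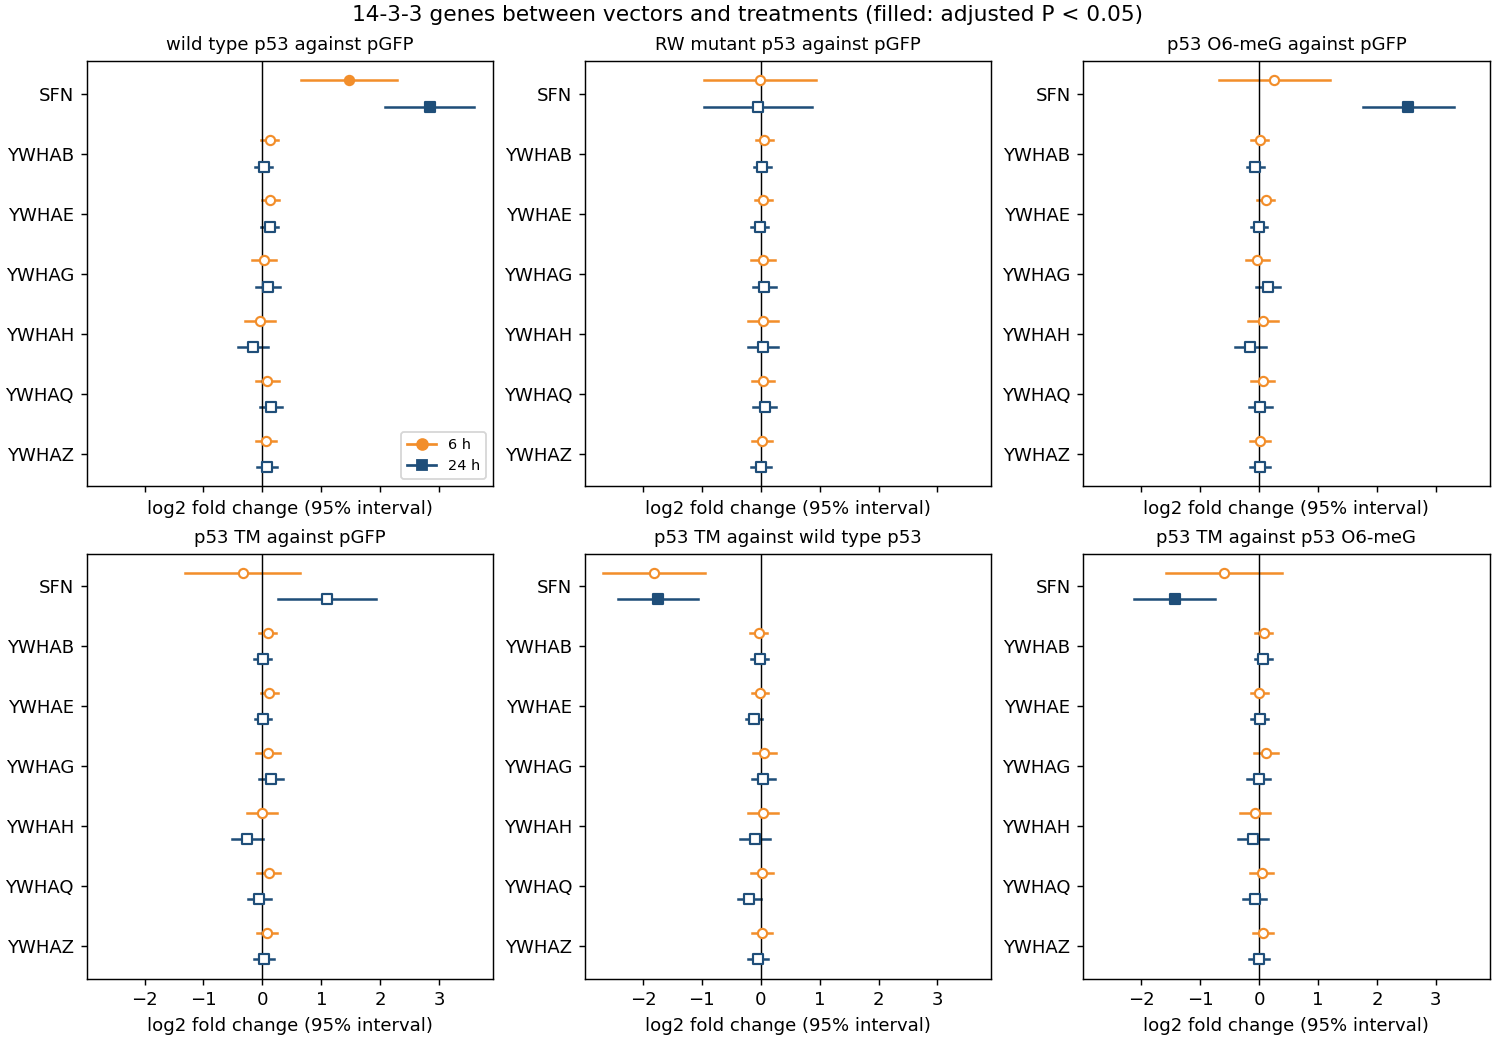
Log2 fold changes of the 7 genes with 95% intervals (edgeR) in 6 comparisons between vectors or treatments, at 6 h (orange circles) and 24 h (blue squares), with filled symbols for an adjusted P under 0.05. The filled symbols are all SFN, and the YWHA genes lie between −0.25 and 0.15 in these panels.

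From 6 h to 24 h some YWHA genes changed by less than 2-fold, also without p53. In pGFP, YWHAE was at 441, 461 and 505 CPM at 6 h and at 501, 589 and 559 CPM at 24 h. The lowest library at 24 h lay under the highest at 6 h, and YWHAE rose by 0.23 ± 0.07 on the log2 scale (edgeR, adjusted P = 0.0095). YWHAH was at 147, 149 and 146 CPM at 6 h and at 93.8, 119 and 117 CPM at 24 h. The times did not overlap, and YWHAH fell by 0.43 on the log2 scale (SE 0.12; adjusted P = 0.0075). YWHAG, the gamma isoform, went from 511, 508 and 481 CPM to 358, 416 and 438 CPM, also without overlap, and fell by 0.31 (SE 0.10; adjusted P = 0.013).

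Called higher with time in pGFP was thus 1 member of 7, beside 18.4% of all genes, and called lower were 2 of 7, beside 21.8%. YWHAB (−0.17 ± 0.07, adjusted P = 0.055), YWHAZ (−0.18 ± 0.08, 0.080), YWHAQ (0.14 ± 0.09, 0.27) and SFN (0.30 ± 0.45, 0.63) did not pass by edgeR. With the replicate number as a block, YWHAB (0.026) and YWHAZ (0.049) passed as well, which made 5 of 7 called. Without pGFP replicate 1 at 24 h, YWHAH (0.063) and YWHAG (0.099) were lost, and YWHAE was the 1 member called. YWHAE in turn was lost without pGFP replicate 2 at 24 h (0.079) and without replicate 1 at 6 h (0.072).

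In RW mutant p53, compared in time after the pGFP values were seen, YWHAH fell by 0.42 (SE 0.12), YWHAG by 0.29 (SE 0.10) and YWHAB, the beta isoform, by 0.20 (SE 0.07) on the log2 scale, with edgeR adjusted P of 0.0084, 0.021 and 0.024. These 3 of 7 stood beside 21.1% of all genes called lower, and none rose, beside 18.1% called higher. YWHAE (0.17 ± 0.07) and YWHAZ (−0.20 ± 0.08) each had an adjusted P of 0.057. YWHAE passed with the replicate block (0.019), DESeq2 (0.014), DESeq2 size factors (0.021), only the groups compared (0.049) and at least 10 counts in every library (0.0036), and YWHAZ with the block (0.036). YWHAB was lost with DESeq2 (0.060), DESeq2 size factors (0.067), only the groups compared (0.10), at least 10 counts in every library (0.13) and every gene with a count (0.26), and YWHAG with the last 2 of these (0.070 and 0.13). YWHAH alone was called without RW mutant p53 replicate 1 at 6 h, YWHAG was lost without replicate 2 at 6 h (0.071) and YWHAB without replicate 3 at 6 h (0.059). Without replicate 1 at 24 h YWHAE and YWHAQ were called higher in place of the 3 that fell.

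In wild type p53, YWHAH went from 151, 146 and 135 CPM to 82.4, 96.7 and 116 CPM and fell by 0.55 on the log2 scale (SE 0.12; edgeR, adjusted P = 0.00081). YWHAB fell by 0.28 (SE 0.07; adjusted P = 0.0022) and YWHAE rose by 0.22 ± 0.07 (adjusted P = 0.011). With SFN these were 2 members of 7 called higher, beside 21.6% of all genes, and 2 called lower, beside 23.4%. The wild type effect differed between the times by −0.12 ± 0.18 for YWHAH (edgeR, adjusted P = 0.82), and no YWHA gene was called in that test. YWHAQ (0.20 ± 0.09, adjusted P = 0.089) was called higher as well with the replicate block (0.040), DESeq2 (0.025), DESeq2 size factors (0.028), only the groups compared (0.019) and at least 10 counts in every library (0.0091), and YWHAG (−0.24 ± 0.10, 0.051) was called lower with the other grouping (0.047). YWHAE was lost when every gene with a count was tested (0.14). Without wild type p53 replicate 3 at 24 h YWHAE was lost (0.055) and YWHAG called (0.018), and without replicate 3 at 6 h YWHAG (0.038) and YWHAZ (0.046) were called. YWHAB and YWHAH were called without any 1 library.

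In pGFP, RW mutant p53 and wild type p53, YWHAE and YWHAQ had positive and YWHAB, YWHAG, YWHAH and YWHAZ negative log2 fold changes from 6 h to 24 h, also with DESeq2 size factors. These 3 comparisons share no library, but same-numbered libraries at 24 h deviated together, so they are not independent. The summed level of the markers of other cells was higher in every library at 24 h than in every library at 6 h. In pGFP 4 of the 6 tested were called higher, beside 18.4% of all genes. The part of these markers in the time differences was not tested.

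**Figure D4:**
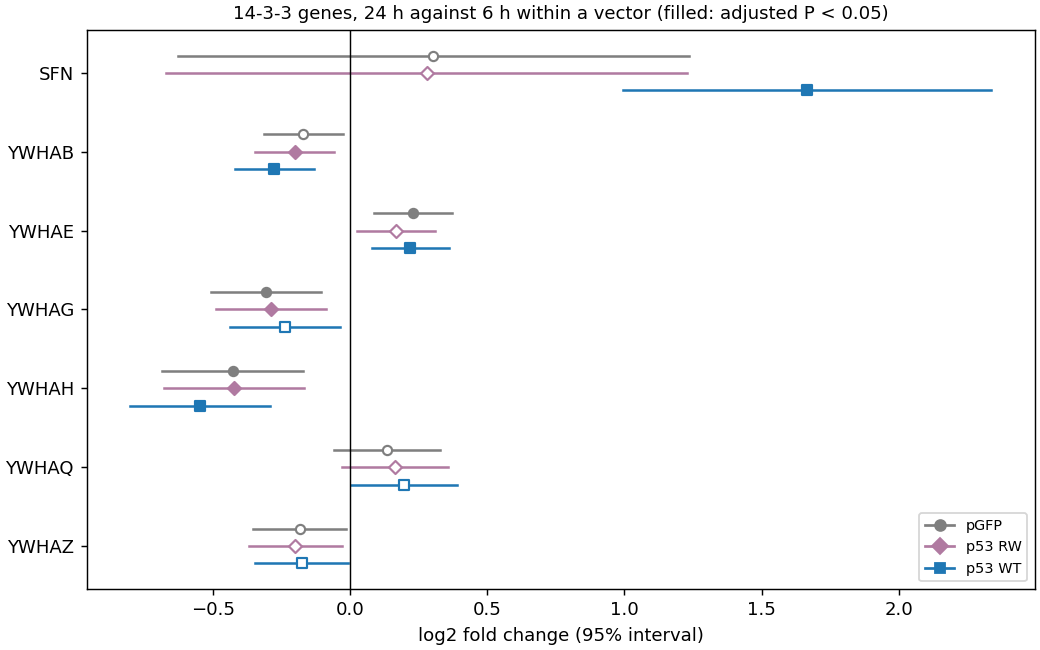
Log2 fold changes from 6 h to 24 h of the 7 genes with 95% intervals (edgeR) in pGFP (grey circles), RW mutant p53 (purple diamonds) and wild type p53 (blue squares), with filled symbols for an adjusted P under 0.05. YWHAH is filled in all 3, between −0.55 and −0.42, and SFN is filled only in wild type p53.

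**Figure D5:**
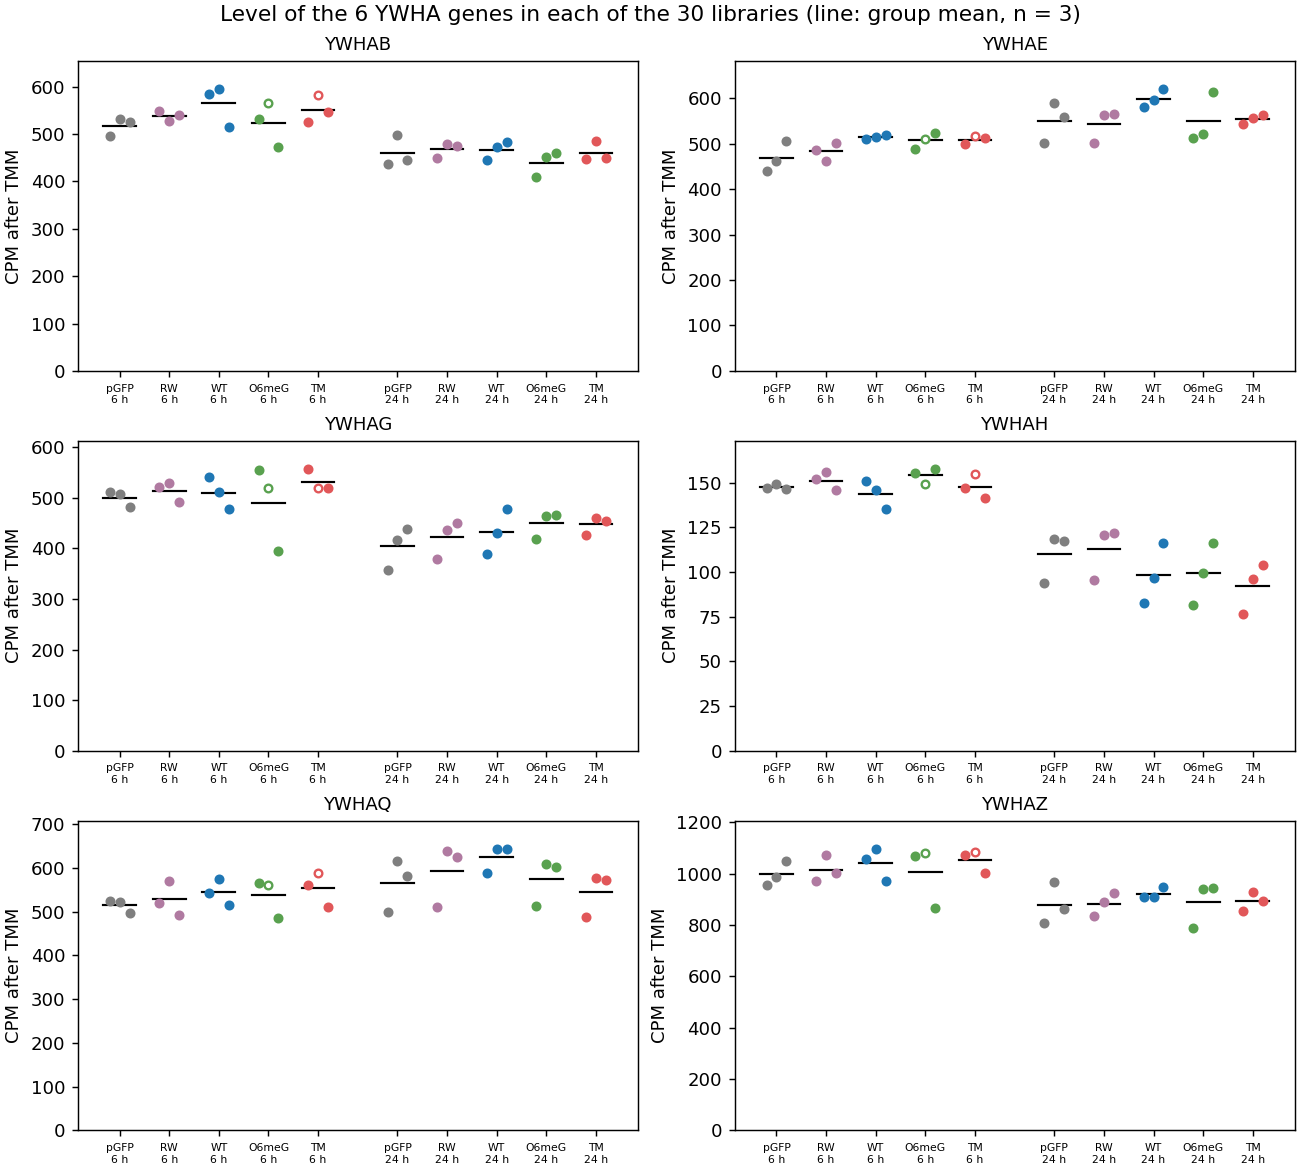
Level of each YWHA gene in CPM after TMM scaling (vertical axis from 0) in all 30 libraries, 1 point each, with group means as lines (n = 3) and hollow points for the 2 libraries with conflicting titles. YWHAH is at 135 to 158 CPM in every library at 6 h and at 76.4 to 122 CPM at 24 h, with no overlap.

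Over the 30 libraries, the genes whose log2 CPM was most like that of SFN were ITPKB, GDF9, ENSG00000279117, SCARF1 and USH1C, with Pearson correlations of 0.955, 0.955, 0.954, 0.953 and 0.952 and Spearman correlations of 0.915, 0.913, 0.881, 0.932 and 0.933. CDKN1A was at 0.868 (Spearman 0.777). Libraries of a group are alike, so these values include the differences between groups. Among the YWHA genes the closest pairs were YWHAB with YWHAZ (0.904, and 0.756 within the 15 libraries at 6 h and 0.795 within the 15 at 24 h) and YWHAG with YWHAZ (0.862, and 0.763 and 0.639). YWHAB and YWHAH were at 0.823 over all libraries, but at −0.05 within 6 h and 0.628 within 24 h, so the pooled value includes the difference between the times. Genes most like YWHAH were TEAD4 (0.986), XPOT (0.986) and LMNB1 (0.981), and within the 15 libraries at 6 h these were at 0.865, 0.681 and 0.381, so the pooled values again include the difference between the times. Those most like YWHAB were UBE2K (0.946), ACTR2 (0.941) and PTGES3 (0.939), and those most like YWHAZ were ELOVL5 (0.939), NUCKS1 (0.934) and GNG12 (0.924). For YWHAG they were RAD23B (0.917), BICD2 (0.909) and TOMM20 (0.903). YWHAE and YWHAQ had no gene as close, with PIM1 (0.881), MIDN (0.873) and TIMP1 (0.872) for YWHAE and PDIA6 (0.879), RPS21 (0.877) and SAMD11 (0.876) for YWHAQ.

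The p53 targets of the cell cycle checkpoint named beside SFN in the study are BTG2, CDKN1A, PIDD1, PLK2, PLK3, RBM38, ZNF385A and GADD45A, which the study chose on these samples and which are therefore not independent evidence of a direction. All 8 rose with wild type p53 at both times, beside 7.64% and 20.3% of all genes, with median log2 fold changes of 2.20 and 2.86 beside 0.02 and 0.01 over all genes. SFN, at 1.47 and 2.84, lay below the median at 6 h and near it at 24 h. None of the 8 was called with RW mutant p53 at either time, beside 0.00479% of all genes. In p53 TM at 24 h all 8 were called higher than in pGFP, beside 7.71% of all genes. SFN, on 22, 30 and 26 counts against 12, 11 and 10, was not called as labelled but was with the other grouping. In p53 TM against wild type p53 at 24 h PLK2 (−1.37 ± 0.34), a kinase of the polo-like family, and RBM38 (−0.57 ± 0.19), an RNA-binding protein, were the 2 of 8 called lower, beside 10% of all genes, and the median was −0.64. With the other grouping 7 of the 8 were called lower, beside 12.6% of all genes, and with both conflicting libraries left out also 7, beside 11.9%. SFN, at −1.74, was lower than the median.

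Of 30 proteins known to bind 14-3-3 when phosphorylated, all passed the filter. With wild type p53 at 6 h 3 rose and none fell, beside 7.64% and 1.11% of all genes. They were WEE1 (1.14 ± 0.19), the kinase that inhibits CDK1, KSR1 (2.18 ± 0.47), a scaffold of the RAF kinases, and WWTR1 (0.35 ± 0.09), the transcriptional coactivator TAZ. At 24 h 9 of the 30 rose and 5 fell, with a median of 0.01. CDC25A (−0.74 ± 0.09) and CDC25C (−0.83 ± 0.12), phosphatases that activate the cell cycle kinases, and CHEK1 (−0.55 ± 0.08), the kinase that phosphorylates them, fell, and WWTR1 (0.58 ± 0.09) rose. The shares, 9 and 5 of 30, stood beside 20.3% and 14.6% of all genes called higher and lower, and the median over all genes was 0.01.

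With p53 O6-meG at 24 h 7 of the 30 rose and 6 fell, beside 17.9% and 11.3% of all genes. KSR1 (2.96 ± 0.47) and WWTR1 (0.53 ± 0.09) rose, and CDC25C (−0.72 ± 0.12) and CHEK1 (−0.40 ± 0.08) fell. With p53 TM 2 rose, KSR1 (2.18 ± 0.47) and WWTR1 (0.30 ± 0.09), and 2 fell, CDC25A (−0.32 ± 0.09) and CHEK1 (−0.25 ± 0.08), beside 7.71% and 1.49% of all genes. These comparisons share the pGFP libraries.

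In p53 TM against wild type p53 at 24 h 4 of the 30 were higher and 3 lower, beside 8.46% and 10% of all genes. With the other grouping 6 were higher and 6 lower, beside 9.82% and 12.6%, and with the replicate block 5 and 4, beside 10.1% and 11.8%. FOXO4 (0.67 ± 0.11), a forkhead transcription factor, CDC25C (0.60 ± 0.12) and CDC25A (0.41 ± 0.09) were higher, and WEE1 (−0.79 ± 0.19) was lower. With RW mutant p53 none of the 30 was called at either time, beside 0.00479% of all genes.

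The partners and regulators of SFN in mitotic arrest were 12 genes, all tested. None was called with wild type p53 at 6 h, beside 8.75% of all genes, and at 24 h 2 rose and 6 fell, beside 20.3% and 14.6%, with a median of −0.25. CDK1 (−1.32 ± 0.16), the mitotic kinase, and BRCA1 (−0.84 ± 0.12), a regulator of SFN transcription, fell, and COP1 (0.55 ± 0.08) and TRIM25 (0.32 ± 0.06), ubiquitin ligases known to act on SFN, rose. With p53 O6-meG at 24 h 2 of the 12 rose and 4 fell, beside 17.9% and 11.3% of all genes, among them CDK1 (−1.02 ± 0.16), TP73 (−0.82 ± 0.14), a relative of p53, and BRCA1 (−0.64 ± 0.12). Without p53, from 6 h to 24 h in pGFP, 2 of the 12 also rose and 6 fell, beside 18.4% and 21.8% of all genes, with CDK2 (−0.68 ± 0.08), TRIM25 (−0.49 ± 0.06) and CDK4 (−0.73 ± 0.11) lower and TP73 (1.12 ± 0.14) higher. In p53 TM against wild type p53 at 24 h, which shares the wild type libraries, CDK1 (0.88 ± 0.16) and BRCA1 (0.53 ± 0.12) were the 2 of 12 called higher and COP1 (−0.29 ± 0.08) and TRIM25 (−0.17 ± 0.06) the 2 called lower, beside 8.46% and 10% of all genes. In p53 TM against pGFP 1 of the 12 was called higher (COP1, 0.26) and none lower by edgeR, beside 7.71% and 1.49% of all genes. With the replicate block CDK1 (−0.44), CCNB1 (−0.35) and CCNB2 (−0.34) were called lower, beside 2.26% of all genes. With the other grouping 1 of the 12 was, beside 2.01%.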

How the data were processed

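RNA-seq libraries (single reads, ribosomal RNA removed) of 30 samples were made by the authors, who aligned reads to hg38 with STAR 2.5.3a and counted them on GENCODE 27 genes with featureCounts (Subread 1.5.2). The deposited values used are raw read counts per gene. Which strand setting was used for counting is not given in the sources used here. A deposited normalized table was not used. Coordinates and names come from GENCODE 44 on the same build, which matched 38904 of 39359 genes.

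Counts were filtered by filterByExpr, scaled by TMM and fitted over all 10 groups in R 4.3.3 with edgeR 4.0.16 (quasi-likelihood test, Benjamini-Hochberg over 20875 genes, threshold 0.05). Standard errors were derived from the estimate and its F statistic. The fitting was tested on simulated data. Shares were compared by two-sided exact permutation tests (scipy 1.17.1). Alternatives were DESeq2 1.42.0 and its size factors, other filters, the replicate number as a block, fits of only the groups compared, other placements of the 2 libraries with conflicting titles, and leaving out each library.

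Members and lists were chosen with earlier results of these data known. Named genes are the members, CDKN1A, the 5 genes most correlated with SFN and 3 for each YWHA gene (log2 CPM, prior count 2), and at most 4 called genes per list, smallest P first. The study's methods describe biological triplicates, and the labels do not say whether these were separate transfections. Same-numbered libraries at 24 h deviated together from their group means (correlation above 0.1 in all 30 pairs of libraries, from 0.427 to 0.884). Pairs with different numbers were above 0.1 in 13 of 60, with a median of −0.457, so the numbers pair the libraries. At 6 h 8 of 9 same-numbered pairs of pGFP, wild type and RW mutant p53 were above 0.1 (0.092 to 0.694, median 0.472). Pairs with different numbers at 6 h were above it in 2 of 18, with a median of −0.240. The values at 6 h thus point the same way, on fewer pairs. The main fits did not use the pairing. Protein sequences were not used here, and the level of the gene carried by the vectors is not reported here.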

Additional observations from a re-analysis of the deposited data

How the results depend on the processing

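No YWHA gene was called between vectors or treatments under any alternative run. The rises of SFN with wild type p53 and p53 O6-meG at 24 h and its fall in p53 TM against wild type p53 at 24 h kept their call under every alternative that tested SFN. Requiring 10 counts or more in each library removed SFN, which left 0 members called in these comparisons, in p53 TM against p53 O6-meG at 24 h and in wild type p53 against pGFP at 6 h.

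The call of SFN in p53 TM against wild type p53 at 6 h depended on the setting, with 1 member called in place of 0: its log2 fold change was −1.79 with the DESeq2 Wald test (adjusted P = 0.013), −1.79 when every gene with at least 1 count was tested (0.030), −1.82 with the replicate block (0.048), −2.38 with the other grouping, −2.18 with both conflicting libraries left out, −2.37 with the block and the other grouping, and −2.36 with DESeq2 and the other grouping. The cause was not tested. Leaving out 1 library gave −2.18 to −1.61, with 0 to 1 member called (1 without p53 TM replicate 2, adjusted P = 0.0040). For wild type p53 against pGFP at 6 h this range was 1.25 to 1.82, with 0 to 1 called.

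The other grouping, alone or with the block or DESeq2, called SFN (1 member in place of 0) in p53 TM against p53 O6-meG at 6 h. In p53 TM against pGFP and against RW mutant p53 at 24 h SFN was called with the other grouping, with both libraries left out and with the block and the other grouping, and against RW mutant p53 also with DESeq2 and the other grouping. In p53 TM against p53 O6-meG at 24 h 0 members were called when only the groups compared were fitted, and 0 to 1 without 1 library. The replicate block, alone or with the other grouping, called 5 members in place of 3 from 6 h to 24 h in pGFP and in RW mutant p53. The block alone changed no other call between vectors or treatments but that of SFN in p53 TM against wild type p53 at 6 h, and it added YWHAQ from 6 h to 24 h in wild type p53. Which YWHA genes passed over time changed with the setting in pGFP, RW mutant p53 and wild type p53, also where the count stayed the same. Testing every gene with a count left 1 in RW mutant p53, and without 1 library the counts were 1 to 4 in pGFP and 1 to 3 in RW mutant p53.

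Without division by exon length the SFN share differed by 0.0115 points (wild type p53 against pGFP) and −0.0130 points (p53 TM against wild type p53) at 6 h and by 0.0519 and −0.0419 points at 24 h, in the same directions.

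Signs that changed belong to values near 0 that were not called. With wild type p53, YWHAG at 6 h was −0.0124 with DESeq2 size factors, −0.0124 with DESeq2, −0.0125 with DESeq2 and the other grouping and −0.00108 with at least 10 counts, YWHAB at 24 h was −0.00349 with DESeq2 size factors, −0.00351 with DESeq2 (also with the other grouping) and −0.0637 with every gene, and YWHAZ at 24 h was −0.0140 with every gene. Without 1 library, SFN against pGFP lay between −0.281 and 0.328 (6 h) or −0.256 and 0.118 (24 h) in RW mutant p53, between −0.194 and 0.697 in p53 O6-meG at 6 h and between −0.709 and 0.0114 in p53 TM at 6 h, and between −0.166 and 0.446 in the change of the p53 TM difference from wild type p53 between the times. With wild type p53, YWHAG ranged from −0.0159 to 0.0745 and YWHAH from −0.0719 to 0.00727 at 6 h, and YWHAB from −0.0150 to 0.0794 at 24 h.

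SFN had at most 118 counts in a library and 3 to 17 in every library of pGFP, RW mutant p53 and the lesion groups at 6 h. Changes under about 2-fold were therefore not detectable there, and larger ones were not always called. Without 1 library, SFN in p53 O6-meG against wild type p53 at 6 h lay between −1.669 and −0.7782 on the log2 scale. It was not called in any of these fits (edgeR, adjusted P from 0.1652 to 0.5625).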
